A study of Mus musculus with 16 samples.

Results

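The 10 genes described here encode acute phase proteins and complement components: Orm1, Hp, Saa3, Lcn2, Lbp, Serpina3n, Serping1, Cfb, C4b and C1ra. They were taken from 19938 genes measured in whole mouse lung, as the probe set whose annotation gave each symbol alone. All 10 symbols were found, and each had 1 such probe set. A further probe set annotated to both C1ra and C1rb was not used. The series compared wild-type B6129SF2/J mice with Vldlr-/- mice, in which Vldlr, encoding a receptor for very low density lipoprotein, is disrupted. The labels used here name no strain for the knockout mice. Mice of each genotype received saline or house dust mite (HDM) extract, 25 µg in 10 µl, into the nose 5 days a week for 6 weeks, a model of allergic asthma. Each of the 4 groups had 4 arrays, called biological replicates in the labels. The number, age and sex of the animals behind each array, and the part of Vldlr that was deleted, are not stated in the labels used here, so a p-value measures the spread between these arrays.

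Acute phase proteins are secreted mainly by the liver during inflammation, under interleukin-6, interleukin-1 and the transcription factors STAT3, C/EBP and NF-kB. Epithelial cells, mesothelium, macrophages and neutrophils also make several of them in the lung. Complement is a cascade of blood and tissue proteases that tags particles for uptake. C1r and C1s start the classical branch, C4 carries it on, factor B drives the alternative branch, and C1 inhibitor holds C1r and C1s in check.

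Values are log2 intensities of each probe set, so a difference of 1 is a doubling. Levels of different probe sets cannot be set against each other. Changes are differences of group means with the standard error (SE) of limma's linear model over all 16 arrays. A gene was called where its p-value, adjusted over all 19938 genes by the Benjamini-Hochberg method, was below 0.05. The Vldlr probe set read 10.27 to 10.92 on the 8 wild-type arrays and 9.40 to 9.91 on the 8 knockout arrays. Array medians lay between 8.78 and 8.85, and the arrays correlated with one another at 0.980 to 0.995. The mean of 10 alveolar type 2 markers, a check of the tissue, lay between 12.6 and 12.9 and is given by group below. The mean of 10 liver markers, which include albumin, lay between 7.96 and 8.15. Wild-type saline arrays 2 and 3 stood apart from 1 and 4 in Rnase2a, an eosinophil ribonuclease, at 11.47 and 11.22 against 8.54 and 9.68. Values that rest on the wild-type saline group are therefore also given without both arrays where that changed a call or moved them by over 1.5 times, beside the member or, for changes of sign, in the closing section. Leaving both out keeps only arrays 1 and 4 in that group. It does not remove arrays of poor quality. When arrays were weighted by their quality, wild-type saline 2 and 3 had the highest weights of all 16.

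In wild-type lung, HDM raised Orm1 2.01-fold and lowered Hp 1.54-fold. The other 8 members did not pass the test. In knockout lung, Hp, Cfb, Lbp and Serping1 fell and Saa3 and Serpina3n rose, by 1.23-fold to 2.26-fold. Orm1, the member with the largest rise in wild type, was not called in the knockout, where its mean was lower under HDM than under saline. Its response to HDM differed between the genotypes by 1.49 on the log2 scale (SE 0.29).

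In wild type, 1 of 10 members was called higher and 1 lower, against 7.86% and 9.72% of all genes. In either direction that is 2 of 10 against 17.6%. The HDM and saline arrays did not overlap for 3 members, Orm1, Hp and Serping1, against 23.5% of all genes. The median change over the members was 0.12, and over all genes -0.05. In the knockout, 2 members were called higher and 4 lower, against 4.96% and 3.88% of all genes, or 6 of 10 against 8.84% in either direction. The groups did not overlap for 6 members against 14% of all genes, and the median change was -0.28 against -0.03. These comparisons have no arrays in common. Whether the members' responses differed between genotypes is given by the interaction below, where 1 of 10 was called.

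**Figure D1:**
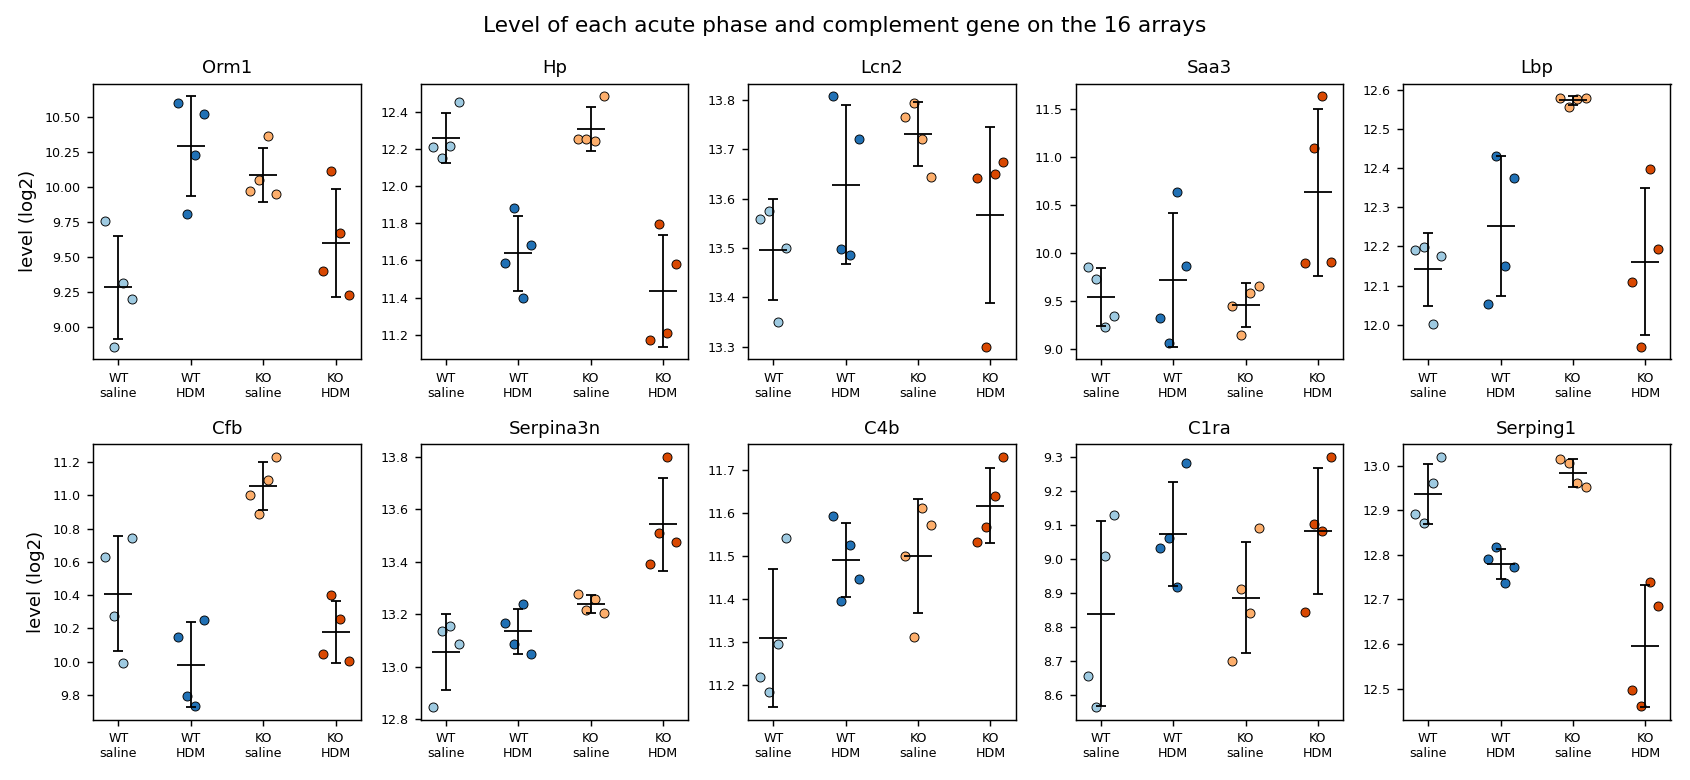
Log2 intensity of each member (vertical axis, one panel per gene) on the 4 arrays of each group. Points are arrays, long bars group means and whiskers 1 SD. Orm1 was high in wild-type HDM and knockout saline arrays, Hp was low in both HDM groups, and Cfb and Lbp were highest on the knockout saline arrays.

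Orm1 encodes orosomucoid 1, an acute phase carrier protein of plasma also known as alpha-1-acid glycoprotein. In wild type it read 9.76, 8.86, 9.31 and 9.20 on the saline arrays and 10.60, 9.81, 10.23 and 10.52 on the HDM arrays. Every HDM array lay above every saline array. In the knockout it read 9.97, 10.05, 10.37 and 9.95 under saline and 9.40, 10.11, 9.67 and 9.23 under HDM. There the groups overlapped, and the saline arrays lay above all 4 wild-type saline arrays. HDM raised Orm1 by 1.01 in wild type (SE 0.20, limma adjusted p = 0.00394). The knockout difference of -0.48 (95% interval -0.91 to -0.06) did not pass the test (limma adjusted p = 0.159). The interaction, the knockout response minus the wild-type response, was -1.49 (SE 0.29, limma adjusted p = 0.0247) and ranked 5th among the negative interactions of all genes. Under HDM, Orm1 was 1.61-fold lower in knockout than in wild type (change -0.69, SE 0.20, limma adjusted p = 0.0353), although the 2 groups overlapped. Without wild-type saline arrays 2 and 3, the wild-type rise was 0.81 (limma adjusted p = 0.0576) and the interaction -1.30 (limma adjusted p = 0.146). Leaving out single arrays gave an interaction of -1.66 to -1.35 with adjusted p from 0.0112 to 0.0642, above the threshold without any of wild-type saline 2 or 3, wild-type HDM 4, knockout saline 2, 3 or 4, or knockout HDM 1. With a score of circadian clock genes in the model it was -1.61 (limma adjusted p = 0.150), where 0 of all genes had a called interaction. The Orm1 call was lost in 9 of 27 settings in all.

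The orosomucoid genes lie side by side, with no coding gene between Orm1 and Orm3 or between Orm3 and Orm2 in the RefSeq annotation of GRCm38.p6. Orm2 read 9.31, 8.39, 9.23 and 8.96 in wild-type saline arrays and 9.81, 8.79, 8.37 and 8.12 in wild-type HDM arrays. In the knockout it read 10.12, 9.92, 10.72 and 9.74 under saline and 8.35, 8.37, 8.91 and 8.69 under HDM. The knockout saline arrays lay above every wild-type saline array, and above every knockout HDM array. HDM lowered Orm2 2.92-fold in the knockout (change -1.54, SE 0.29, limma adjusted p = 0.00326), while the wild-type difference was -0.20 (SE 0.29, limma adjusted p = 0.651). Orm3 stayed between 7.16 and 7.78 on all arrays and was called in no comparison. The orosomucoid genes are close copies in mice, so the probe sets may share signal, and the values of the 3 genes are uncertain to that extent.

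Hp encodes haptoglobin, which binds free haemoglobin. In wild type it read 12.21, 12.15, 12.22 and 12.45 under saline and 11.59, 11.88, 11.40 and 11.68 under HDM. Knockout arrays read 12.25, 12.25, 12.24 and 12.48 under saline and 11.17, 11.79, 11.21 and 11.58 under HDM. All 8 HDM arrays lay below all 8 saline arrays. Hp fell by 0.62 in wild type (SE 0.125, limma adjusted p = 0.0041), and by 0.87, or 1.83-fold, in the knockout (SE 0.125, limma adjusted p = 0.000361). The responses differed by -0.25 (95% interval -0.62 to 0.12, limma adjusted p = 0.527), and the genotypes differed by 0.05 under saline and -0.20 under HDM, neither past the test. Both falls were called under all 28 alternative settings, with changes between -0.996 and -0.54 over both genotypes. The larger bound came with the clock score in the model, which also turned the interaction to 0.11 and the genotype difference under HDM to 0.14, both uncalled.

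Saa3 encodes serum amyloid A3, the form made by macrophages and epithelium outside the liver. Wild-type arrays read 9.85, 9.73, 9.23 and 9.34 under saline and 9.32, 9.06, 10.64 and 9.86 under HDM. Knockout arrays read 9.45, 9.14, 9.57 and 9.65 under saline and 9.90, 11.09, 11.63 and 9.91 under HDM. All 4 knockout HDM arrays lay above the knockout saline arrays, and among them arrays 2 and 3 were over 1 log2 unit above 1 and 4. Saa3 rose 2.26-fold in the knockout (change 1.18, SE 0.35, limma adjusted p = 0.0435). The wild-type difference was 0.18 (95% interval -0.55 to 0.92, limma adjusted p = 0.733), and the interaction of 0.995 (95% interval -0.04 to 2.04) did not pass the test (limma adjusted p = 0.342). With the clock score in the model, the wild-type difference was 0.97 (limma adjusted p = 0.215) and the interaction 0.25 (limma adjusted p = 0.950). The call was lost in 13 of 28 settings, among them leaving out knockout HDM array 3, and leaving out single arrays gave 0.84 to 1.42 with adjusted p from 0.0134 to 0.153. Saa3 had the widest spread of the members within groups, with a pooled SD of 0.59 against a median of 0.10 over all genes. Of its relatives on the same chromosome, Saa1 stayed between 5.27 and 5.92 on all arrays. Saa2 read 6.88 to 7.13 in wild-type saline arrays and 6.46 to 6.73 in wild-type HDM arrays, and fell by 0.36 (SE 0.08, limma adjusted p = 0.0073).

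Lcn2 encodes lipocalin 2, which withholds iron from bacteria by binding their siderophores. Across all 16 arrays it stayed between 13.30 and 13.81, a 1.42-fold range, and it was called in no comparison. Wild-type arrays read 13.56, 13.57, 13.35 and 13.50 under saline and 13.81, 13.50, 13.49 and 13.72 under HDM, and the groups overlapped. The HDM differences were 0.13 in wild type (95% interval -0.05 to 0.32) and -0.16 in the knockout (-0.35 to 0.02). Knockout saline arrays, at 13.77, 13.79, 13.72 and 13.64, lay above all wild-type saline arrays (difference 0.23, SE 0.09, limma adjusted p = 0.445).

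Lbp encodes lipopolysaccharide binding protein, which hands bacterial lipopolysaccharide to CD14 and the Tlr4 and Ly96 receptor complex. Knockout saline arrays read 12.58, 12.56, 12.58 and 12.58, above every array of the other 3 groups. Knockout HDM arrays read 12.11, 11.94, 12.40 and 12.19. Lbp fell by 0.41 under HDM in the knockout, or 1.33-fold (SE 0.09, limma adjusted p = 0.00842), a call kept in all 28 settings. Wild-type arrays overlapped, at 12.19, 12.20, 12.002 and 12.18 under saline and 12.05, 12.43, 12.15 and 12.37 under HDM, with a difference of 0.11 (95% interval -0.08 to 0.30), or 0.07 without saline arrays 2 and 3. Under saline the knockout was higher by 0.43 (SE 0.09) and the interaction was -0.52 (SE 0.13), and both lay just outside the threshold (limma adjusted p = 0.0623 and 0.0624). The saline difference was called without either wild-type HDM array 1 or 2 or knockout HDM array 2 or 3. It was uncalled without any 1 of the other 12 arrays, with limma adjusted p from 0.0356 to 0.200 over single arrays left out. In all, 6 of 28 settings called it. Under HDM the genotypes differed by -0.09 (95% interval -0.28 to 0.10).

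Serpina3n encodes a secreted serine protease inhibitor whose targets include neutrophil and mast cell proteases. Knockout HDM arrays read 13.39, 13.51, 13.80 and 13.47, above every array of the other 3 groups. The knockout saline arrays read 13.28, 13.22, 13.26 and 13.21. In wild type it read 12.85, 13.14, 13.16 and 13.09 under saline and 13.17, 13.09, 13.24 and 13.05 under HDM, and these groups overlapped. Serpina3n rose by 0.30 in the knockout (SE 0.08, limma adjusted p = 0.0285). Under HDM it was 1.33-fold higher in knockout than in wild type (change 0.41, SE 0.08, limma adjusted p = 0.00625). The wild-type difference was 0.08 (95% interval -0.10 to 0.25), and 0.17 without saline arrays 2 and 3. The interaction was 0.23 (95% interval -0.02 to 0.47, limma adjusted p = 0.366), and 0.13 without those arrays or 0.10 with the clock score in the model. The rise in the knockout was lost without any 1 of the 4 knockout saline arrays or knockout HDM array 2 or 3, with adjusted p from 0.0177 to 0.101 over single arrays left out.

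Serping1 encodes C1 inhibitor, which blocks C1r, C1s, the lectin pathway proteases and plasma kallikrein. Saline arrays read 12.89, 12.87, 12.96 and 13.02 in wild type and 13.01, 13.01, 12.96 and 12.95 in the knockout. Under HDM they read 12.79, 12.82, 12.74 and 12.77 in wild type and 12.50, 12.46, 12.74 and 12.69 in the knockout. In both genotypes the HDM arrays lay below all the saline arrays. Serping1 fell 1.31-fold in the knockout (change -0.39, SE 0.06, limma adjusted p = 0.000805), a call kept in all 28 settings. The wild-type difference of -0.16 (95% interval -0.29 to -0.03) was not called (limma adjusted p = 0.0837), nor were the interaction of -0.23 (limma adjusted p = 0.202) and the genotype difference under HDM of -0.18 (limma adjusted p = 0.0606).

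Cfb encodes complement factor B, the protease subunit of the alternative pathway C3 convertase. Knockout saline arrays read 11.01, 10.89, 11.09 and 11.23, above every array of the other 3 groups. Knockout HDM arrays read 10.05, 10.40, 10.26 and 10.01, all below them. Cfb fell 1.84-fold in the knockout (change -0.88, SE 0.15, limma adjusted p = 0.00144) and ranked 41st by size among all genes with a negative change there, next to Hp at 42nd. Wild-type arrays read 10.63, 10.27, 9.99 and 10.75 under saline and 10.15, 9.80, 9.73 and 10.25 under HDM. Arrays 2 and 3 were the low ones of the wild-type saline group, and the groups overlapped. The wild-type difference of -0.43 (SE 0.15) was not called (limma adjusted p = 0.0563), and was -0.70 (limma adjusted p = 0.0135) without saline arrays 2 and 3. Under saline the knockout was higher by 0.65 (SE 0.15, limma adjusted p = 0.0992), and by 0.37 (limma adjusted p = 0.830) without those arrays. The interaction was -0.45 (SE 0.21, limma adjusted p = 0.314), and -0.17 without them.

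C4b encodes complement C4, which is split by C1s and by the lectin pathway proteases. Wild-type arrays read 11.22, 11.18, 11.29 and 11.54 under saline and 11.59, 11.40, 11.53 and 11.45 under HDM. Knockout arrays read 11.50, 11.31, 11.61 and 11.57 under saline and 11.53, 11.57, 11.64 and 11.73 under HDM. The group means ranged from 11.31 in wild-type saline to 11.62 in knockout HDM, neighbouring groups overlapped, and no difference was called. The HDM differences were 0.18 in wild type (95% interval 0.01 to 0.35) and 0.12 in the knockout (-0.05 to 0.29). Without wild-type saline arrays 2 and 3, the wild-type difference was 0.11, and the genotype difference under saline 0.12 in place of 0.19. The probe set of its near copy C4a stayed between 8.65 and 9.10. The 2 genes are similar enough that probe sets may share signal. Cfb lies on the same chromosome as C4b, with 5 coding genes between them.

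C1ra encodes the C1r protease of the C1 complex. It read 8.66, 8.57, 9.01 and 9.13 in wild-type saline, 9.04, 9.06, 8.92 and 9.28 in wild-type HDM, 8.70, 8.91, 8.84 and 9.09 in knockout saline and 8.85, 9.10, 9.08 and 9.30 in knockout HDM arrays. All 4 groups overlapped. The HDM differences were 0.23 in wild type (95% interval -0.03 to 0.49) and 0.20 in the knockout (-0.06 to 0.46), and no comparison called the gene. The wild-type value was 0.03 with the clock score and 0.43 with the mean of neutrophil markers in the model. C1s1, its neighbour and partner protease, stayed between 10.72 and 11.07 and was called in none either. C1rb, a near copy, lies on the same chromosome with 1 coding gene between.

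**Figure D2:**
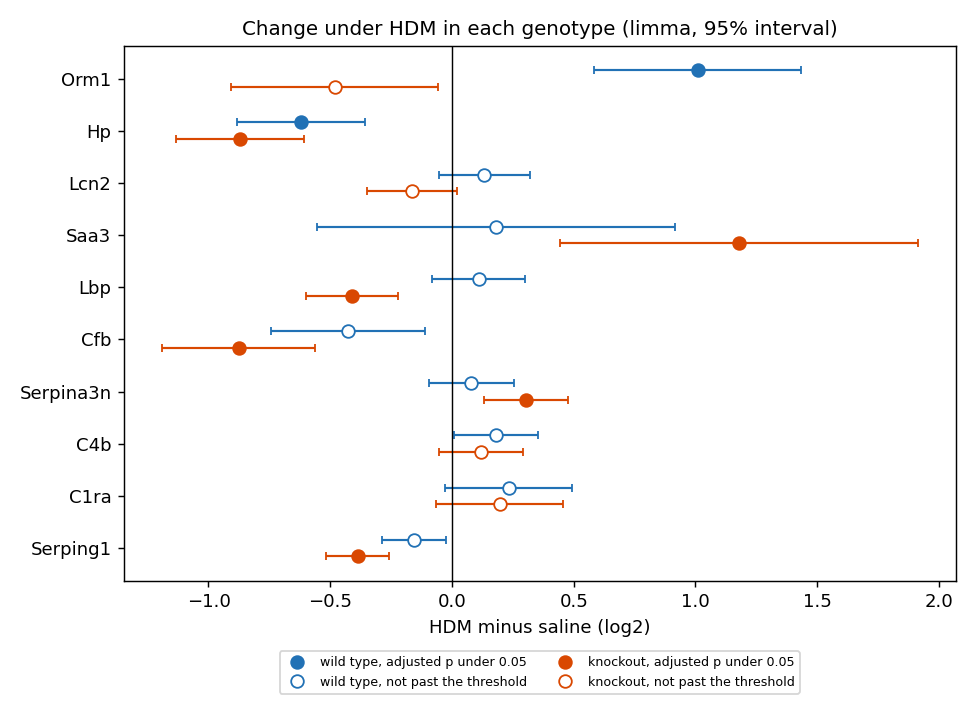
Change under HDM (HDM minus saline, log2, horizontal axis) of each member in wild type and knockout, with the 95% interval of limma's model; filled points passed adjusted p 0.05. Orm1 lay on opposite sides of 0 in the 2 genotypes, at 1.01 and -0.48, and Hp, Cfb and Serping1 lay below 0 in both.

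Under saline, no member differed between the genotypes past the threshold, while 46 of all genes did, or 0.231%. At an unadjusted p under 0.05, 6 of 10 members passed, against 7.81% of all genes. For the members, this looser threshold is given for this comparison alone. Since the members were chosen with earlier results of these data known, the count is a description and no test. The knockout mean was the higher for 9 of 10 members, with Saa3 the exception at -0.08 (95% interval -0.82 to 0.65), or -0.14 without wild-type saline arrays 2 and 3. Hp and C1ra were higher by only 0.050 and 0.047, and without those arrays both lay below 0. The arrays did not overlap for 5 members, Orm1, Lcn2, Lbp, Serpina3n and Cfb, against 6.54% of all genes. The largest differences were 0.80 for Orm1 (SE 0.20, limma adjusted p = 0.142) and those of Cfb and Lbp given above. The median over the members was 0.19, and over all genes -0.01. With arrays weighted by their quality, Cfb, Lbp and Orm1 were called, while the calls over all genes rose from 46 to 110.

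Under HDM, 2 of 10 members were called, Orm1 lower and Serpina3n higher in the knockout, against 11.7% of all genes. The groups did not overlap for 1 member, Serpina3n, against 10.8% of all genes. The median over the members was -0.03, and over all genes 0.02. Saa3 was 0.91 higher in the knockout (95% interval 0.18 to 1.65), short of the threshold (limma adjusted p = 0.0994). Circadian clock genes moved with this comparison, as 1 of 13 was called higher and 7 lower in the knockout under HDM. They also moved with HDM in wild type, where Orm1 rose, with 7 of 13 called higher and 1 lower and a median of 0.30 against -0.05 over all genes. In the knockout HDM called 1 of them, and 1 of 13 interactions was called, with a median of -0.31. A score of these genes ranged from -0.07 to 1.59 in the wild-type HDM arrays and was at most 0.18 on all others. With that score in the model, neither member was called: Orm1 was at -0.80 (limma adjusted p = 0.215) and Serpina3n at 0.29 (limma adjusted p = 0.231). Over all genes that model called 79 in this comparison, against 2327 without the score, so the loss of calls was general. Saa3 was then at 0.21 (limma adjusted p = 0.877), while the wild-type rise of Orm1 was 1.13 (limma adjusted p = 0.0298). The Orm1 call was also lost without any of wild-type HDM array 1 or 4 or knockout HDM array 1, 3 or 4, with adjusted p from 0.0195 to 0.111.

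**Figure D3:**
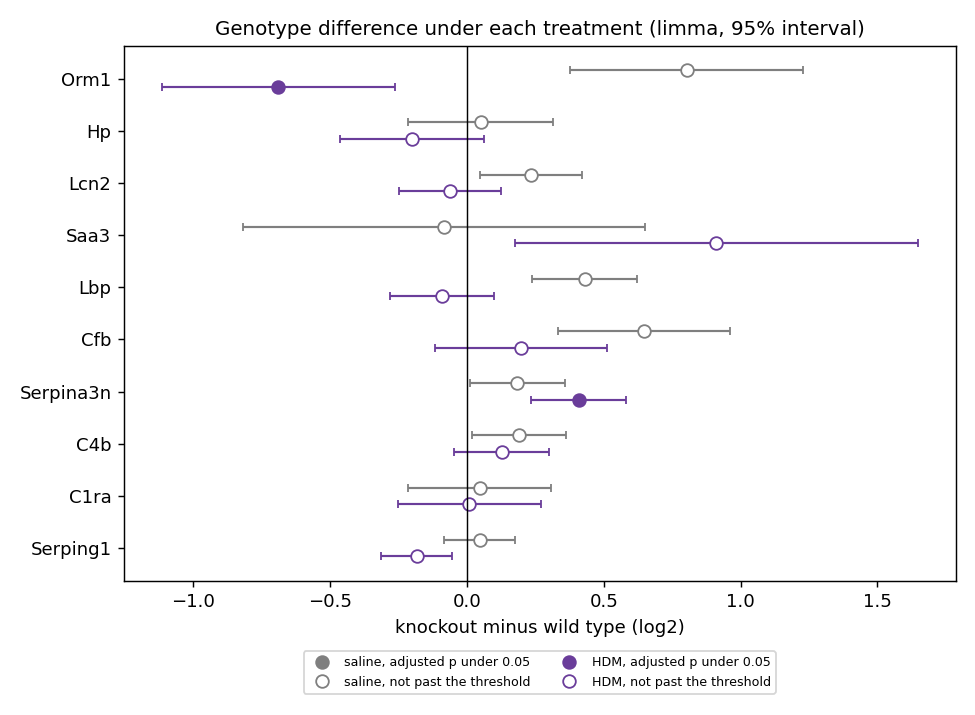
Genotype difference (knockout minus wild type, log2, horizontal axis) of each member under saline and under HDM, with the 95% interval of limma's model; filled points passed adjusted p 0.05. Under saline 9 of 10 members lay above 0 with none called, and under HDM Orm1 was called at -0.69 and Serpina3n at 0.41.

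The interaction was called for Orm1 alone, 1 of 10 members against 0.802% of all genes. It was negative for 8 of 10 members, Saa3 and Serpina3n being positive, with a median of -0.24 against 0.03 over all genes. Since the interaction, the response of the knockout and the saline comparison all use the knockout saline arrays, a high value on those arrays enters each of them. The knockout saline group had the highest mean of the 4 groups for Hp, Lcn2, Lbp, Cfb and Serping1. Of these, its arrays lay clear of the next group for Lbp and Cfb and overlapped it for Hp, Lcn2 and Serping1.

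Start-site sequences are shown for the members with an entry in the RefSeq table of GRCm38.p6, which were 4 of 10, and for Orm2, since Orm2, Saa3 and Serpina3n moved with HDM in the knockout while Lcn2 and C1ra did not pass the test. Each run is the 250 bases before the transcription start, 5′ to 3′ on the gene's strand. Capitals mark matches, searched on both strands, to motifs of transcription factors that drive acute phase genes and to the interferon-stimulated response element. The acute phase motifs were NF-kB as GGG, any 2 bases, TT, any base and CC, STAT as TTCNNNGAA and C/EBP as TTNNGNAA. The interferon element was searched as GAAA, any 2 bases and GAAA again. The windows are chr7:46715677-46715926 for Saa3 (minus strand), chr12:104406458-104406707 for Serpina3n (plus), chr2:32387740-32387989 for Lcn2 (minus), chr6:124512371-124512620 for C1ra (plus) and chr4:63362199-63362448 for Orm2 (plus).
Saa3: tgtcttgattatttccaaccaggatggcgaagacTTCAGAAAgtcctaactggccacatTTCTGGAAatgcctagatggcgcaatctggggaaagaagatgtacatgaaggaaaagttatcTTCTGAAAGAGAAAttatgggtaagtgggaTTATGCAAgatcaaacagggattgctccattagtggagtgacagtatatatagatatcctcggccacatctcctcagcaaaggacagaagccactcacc
Serpina3n: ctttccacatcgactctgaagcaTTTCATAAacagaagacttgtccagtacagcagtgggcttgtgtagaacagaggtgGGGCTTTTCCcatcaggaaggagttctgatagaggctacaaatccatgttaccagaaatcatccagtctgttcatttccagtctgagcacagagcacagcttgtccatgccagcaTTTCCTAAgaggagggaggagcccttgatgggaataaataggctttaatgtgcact
Lcn2: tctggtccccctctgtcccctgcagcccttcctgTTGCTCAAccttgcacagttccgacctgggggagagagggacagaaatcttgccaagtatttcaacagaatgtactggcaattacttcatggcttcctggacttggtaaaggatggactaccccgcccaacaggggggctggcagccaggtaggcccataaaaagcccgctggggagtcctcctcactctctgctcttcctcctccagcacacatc
C1ra: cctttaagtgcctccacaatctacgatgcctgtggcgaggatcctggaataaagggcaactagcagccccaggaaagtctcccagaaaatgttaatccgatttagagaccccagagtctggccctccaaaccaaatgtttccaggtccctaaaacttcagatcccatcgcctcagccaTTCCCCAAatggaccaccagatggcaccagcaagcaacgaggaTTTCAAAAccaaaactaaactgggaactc
Orm2: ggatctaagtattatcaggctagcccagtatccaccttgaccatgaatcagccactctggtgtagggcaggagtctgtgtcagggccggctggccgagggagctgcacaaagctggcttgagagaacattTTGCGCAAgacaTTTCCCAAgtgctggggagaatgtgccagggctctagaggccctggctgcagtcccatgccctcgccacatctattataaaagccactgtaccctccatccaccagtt

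The C/EBP letters occurred 4 times in the Saa3 window, the first base of each match lying 216, 191, 129 and 99 bases before the start. The interferon element match of Saa3, at 125, overlapped the third of these. Serpina3n had 1 NF-kB match, at 171, and C/EBP matches at 227 and 56. Orm2 had C/EBP matches at 120 and 108, of which the former reads the same on both strands. Lcn2 had 1 C/EBP match, at 216, and C1ra had 2, at 72 and 29. None of the 5 windows held the STAT letters. Of 32851 windows of this length in the table, 36.8% held the C/EBP letters, 7.02% the STAT letters, 4.11% the NF-kB letters and 2.98% the interferon element, so the C/EBP letters are common. A match describes letters only and is no evidence of binding.

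Among 26 other acute phase genes, HDM raised 6 and lowered 3 in wild type, and raised 2 and lowered 2 in the knockout. Their median changes were -0.07 and -0.04, near those of all genes. F5, coagulation factor V, rose in both genotypes, by 1.06 in wild type and 1.46 in the knockout (SE 0.13, limma adjusted p = 0.000161 and 4.09e-06). Il1rn, the interleukin-1 receptor antagonist, rose by 0.86 and 1.54 (limma adjusted p = 0.0375 and 0.00177). Itih4, a protease inhibitor heavy chain, rose by 0.88 in wild type (limma adjusted p = 0.000605), and A2m, alpha-2-macroglobulin, fell by 0.54 there (limma adjusted p = 0.0053). In the knockout Cd14, the lipopolysaccharide receptor to which Lbp delivers its ligand, fell by 0.38 (limma adjusted p = 0.0174).

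Lrg1, a leucine-rich glycoprotein of plasma, was the 1 gene of these 26 with a called interaction, at -0.83 (limma adjusted p = 0.0399). It read 10.32 to 10.54 in wild-type saline, 10.88 to 11.54 in wild-type HDM, 10.94 to 11.17 in knockout saline and 10.86 to 11.31 in knockout HDM arrays. The wild-type saline arrays lay below those of the other 3 groups. HDM raised Lrg1 by 0.77 in wild type (limma adjusted p = 0.00117), and the knockout difference was -0.06 (limma adjusted p = 0.82). Steap4, a metalloreductase, was higher in the knockout under both treatments, by 0.53 under saline and 0.54 under HDM (limma adjusted p = 0.0301 and 0.00375).

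Among 26 genes that induce or transmit the acute phase response, 2 rose and 3 fell in wild type, and 3 rose and 1 fell in the knockout. Il1a, the largely cell-associated interleukin-1, rose by 0.84 and 0.88, while Il1b, the secreted form, fell by 0.61 and 0.48 (limma adjusted p = 0.0217, 0.0245, 0.00606 and 0.0305). Jak2, a kinase of cytokine receptors, rose by 0.36 and 0.44. Il6, the main inducer of the response in liver, differed by -0.06 in wild type (limma adjusted p = 0.823) and by 0.49 in the knockout (limma adjusted p = 0.0807). In the knockout Nfkb2, an NF-kB subunit, rose by 0.23 (limma adjusted p = 0.0499), at the edge of the threshold.

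Of 16 other genes that start the classical and lectin pathways, 2 rose and 2 fell in wild type and 3 rose and 1 fell in the knockout. C1qb, a chain of the C1q recognition protein, rose by 0.72 in wild type and 0.77 in the knockout (limma adjusted p = 0.00831 and 0.00652), and C1qa by 0.67 in the knockout (limma adjusted p = 0.004). C2, the partner of C4 and a relative of Cfb, fell by 0.32 in the knockout (limma adjusted p = 0.024). Masp1, a lectin pathway protease, rose by 0.29 there. Of 8 genes of the alternative and terminal pathways, 1 rose and 1 fell in wild type and 2 rose in the knockout. C7, which starts the insertion of the terminal complex, rose in both genotypes, by 0.20 and 0.22. Cfp, properdin, which stabilises the convertase that contains factor B, rose by 0.47 in the knockout (limma adjusted p = 0.0163), where Cfb fell.

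Of 13 complement regulators, 2 rose and 1 fell in wild type and 1 rose and 2 fell in the knockout. Clu, clusterin, fell in both genotypes, by 0.44 and 0.36 (limma adjusted p = 0.00143 and 0.00521). Cfi, the protease that inactivates C3b and C4b, rose by 1.14 in the knockout (limma adjusted p = 0.00665), where its arrays read 7.77 to 9.29 against 7.49 to 7.63 under saline. Cd59a, a membrane inhibitor of the terminal complex, rose by 0.57 in wild type (limma adjusted p = 0.003) and was higher by 0.59 in knockout than in wild type under saline (limma adjusted p = 0.024). Of 10 complement receptor genes, 4 rose and 1 fell in each genotype. Those that rose included Itgax, a chain of complement receptor 4, by 1.16 and 1.61, and C3ar1, the C3a receptor, by 0.83 and 1.34. Among 10 binding partners of the members, 4 rose and 1 fell in wild type and 3 rose and 1 fell in the knockout. Ly96 and Tlr4, which receive lipopolysaccharide from the Lbp and CD14 route, rose by 0.74 and 0.52 in wild type and by 0.49 and 0.31 in the knockout. Cd163, the scavenger receptor of haptoglobin and haemoglobin, rose by 0.72 in the knockout (limma adjusted p = 0.0201).

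Between the genotypes under saline, Steap4 and Cd59a were the 2 genes of these lists that were called. Under HDM, the knockout was higher in 2 and lower in 1 of the 26 other acute phase genes, and higher in 1 and lower in 1 of the 26 inducers. It was higher in 2 of the 16 classical and lectin genes, namely C1qa by 0.45 and Masp1 by 0.28 (limma adjusted p = 0.0358 and 0.0155). Cfp was the 1 of 8 alternative and terminal genes called, higher by 0.46 (limma adjusted p = 0.0174). Of 13 regulators, Cfi was higher by 1.14 (limma adjusted p = 0.00765), while Cpn1, a carboxypeptidase that inactivates C3a and C5a, and Vtn, vitronectin, were lower (changes -0.36 and -0.26, limma adjusted p = 0.00766 and 0.0428). Scarb1, a scavenger receptor that takes up serum amyloid A and lipoprotein cholesterol, was the 1 of 10 binding partners called, higher by 0.24 (limma adjusted p = 0.0426). No receptor was called by limma, and 3 of 10 passed at an unadjusted p under 0.05.

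**Figure D4:**
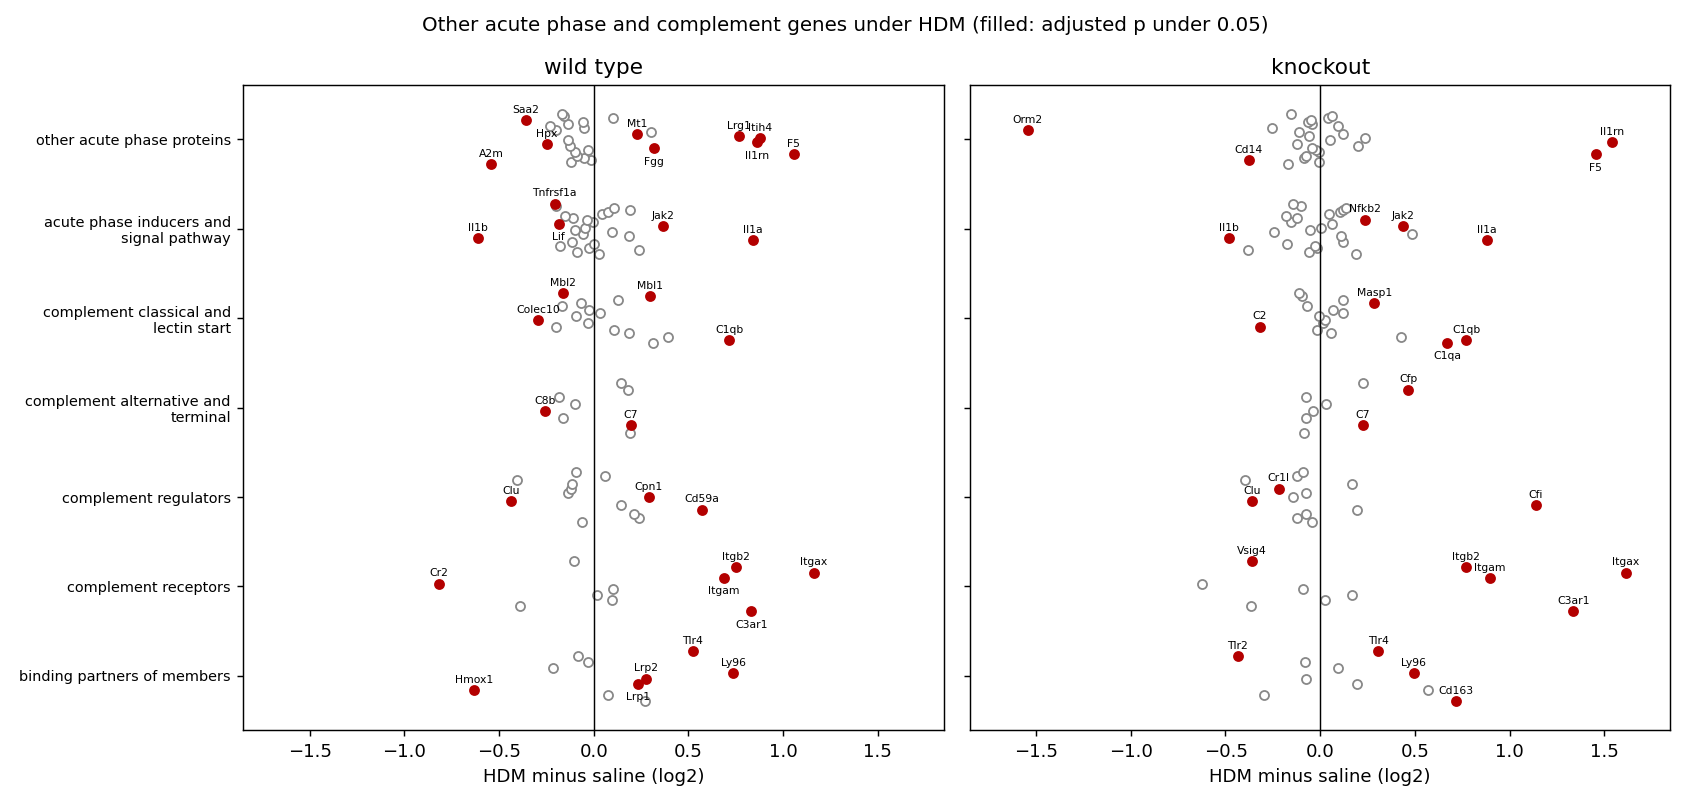
Change under HDM (HDM minus saline, log2, horizontal axis) of the other acute phase and complement genes by list, in wild type and knockout. Each point is a gene, filled and named where limma's adjusted p was below 0.05; most genes lay near 0, with Itgax at 1.16 and 1.61 and Orm2 at -1.54 in the knockout.

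In bulk lung RNA, fewer cells of a type and less RNA per cell cannot be told apart. Mesothelial markers moved with Hp, Cfb and Serping1 in the knockout, where 6 of 8 fell under HDM. In wild type, where Hp was called but Cfb and Serping1 were not, 4 of 8 fell and 2 rose. Msln, mesothelin, fell by 0.47 in wild type and 1.13 in the knockout, and Upk3b, a uroplakin of mesothelium, by 0.44 and 0.83. The mean of the 8 ranged over 9.79 to 9.95 in wild-type saline, 9.57 to 9.86 in wild-type HDM, 9.93 to 10.06 in knockout saline and 9.31 to 9.61 in knockout HDM arrays. Their part in the falls was not tested.

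Neutrophil markers, 13 genes, had 5 that fell and 1 that rose in wild type and 4 that fell and 1 that rose in the knockout. Ltf, the granule protein lactoferrin, which airway glands also make, fell by 0.53 in wild type and 1.18 in the knockout, while Retnlg, a resistin-like protein of neutrophils, rose by 1.59 and 2.14. The mean of the 13 ranged over 8.71 to 8.92 in wild-type saline, 8.62 to 8.78 in wild-type HDM, 8.82 to 8.89 in knockout saline and 8.66 to 8.93 in knockout HDM arrays. With that mean in the model, the knockout falls were -0.84 for Hp, -0.77 for Cfb, -0.37 for Lbp and -0.35 for Serping1, all called, and the wild-type fall of Hp was -0.56 (limma adjusted p = 0.0363). The uncalled wild-type differences were then -0.22 for Cfb, -0.09 for Serping1 and 0.57 for Saa3. Monocyte and interstitial macrophage markers rose with Saa3 and Serpina3n in the knockout, where 4 of 8 rose and 1 fell (median change 0.46). They rose in wild type too, with 3 of 8 called and a median of 0.41, where neither Saa3 nor Serpina3n was called. The median of the marker interactions was -0.0003. The interactions of Saa3 (0.995, interval -0.04 to 2.04) and Serpina3n (0.23, interval -0.02 to 0.47) were uncalled, and no test compared them with the markers. The mean of the 8 markers ranged over 9.84 to 10.07, 10.06 to 10.49, 10.03 to 10.24 and 10.13 to 10.78 in the same order of groups. Their part in the rises was not tested. Of the 10 liver markers, Alb, albumin, fell by 0.24 in wild type (limma adjusted p = 0.03), and no other call was made in any comparison.

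Alveolar type 2 markers moved with the Orm1 comparisons, and club and airway secretory markers only in part. Most interactions of both lists were negative, as were most of the members'. Of 10 alveolar type 2 markers, 3 rose and 1 fell under HDM in wild type, 1 fell in the knockout, and 5 were lower in knockout than in wild type under HDM. Their mean ranged over 12.71 to 12.76 in wild-type saline, 12.83 to 12.93 in wild-type HDM, 12.77 to 12.86 in knockout saline and 12.60 to 12.81 in knockout HDM arrays. All 10 interactions were negative, 2 of them called, with a median of -0.28. Of 10 club and airway secretory markers, 6 rose in wild type, 3 rose and 3 fell in the knockout, and 4 were lower in the knockout under HDM. Their mean ranged over 10.998 to 11.67, 11.96 to 12.33, 11.31 to 11.46 and 11.64 to 11.89 in the same order of groups. In the knockout this mean was higher under HDM, while the Orm1 mean was lower there by a difference that was not called. Under saline it was 11.34 in wild type and 11.37 in the knockout. Of the interactions of these airway markers 9 of 10 were negative, 1 of them called, with a median of -0.37. The part of these markers in the members' differences was not tested.

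**Figure D5:**
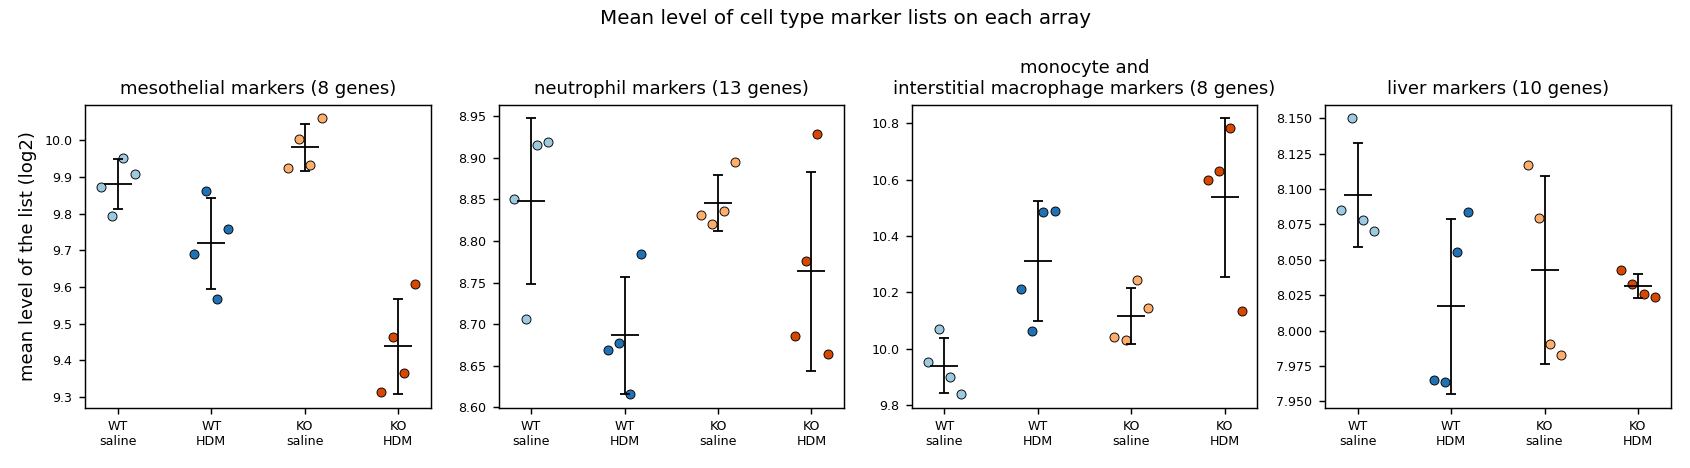
Mean log2 level of 4 lists of cell type markers (vertical axis, one panel per list, scales differ) on the 4 arrays of each group. Points are arrays, long bars group means and whiskers 1 SD; the mesothelial mean was lowest in the knockout HDM arrays, at 9.31 to 9.61, and the liver mean stayed between 7.96 and 8.15.

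Across the 16 arrays, the members fell into loose sets, described here with no test because arrays of a group share their treatment. Hp correlated with Serping1 at r = 0.79 and with Cfb at 0.70, and Saa3 with Serpina3n at 0.70. Saa3 and Serping1 ran opposite, at -0.61. Among all other genes, the closest to Hp were Mgst1, Tm4sf1 and Upk3b (r = 0.95, 0.94 and 0.94). Closest to Serping1 were Tppp3, Tpt1 and Upk3b (0.91, 0.91 and 0.90). The mesothelial marker Upk3b thus stood among the 3 nearest genes of both. Saa3 was nearest to Ccl7, a monocyte chemokine, at 0.96, then Col6a5 and Hdc at 0.93 and 0.92. Cfb was nearest to Ltf at 0.94, then Muc20 and Cd177 at 0.91 and 0.90. Ltf, which airway glands also make, is on the neutrophil list above. Cd177 encodes a neutrophil surface protein but, like Muc20, is on none of the marker lists. Serpina3n was nearest to Ear6, with Ifi30 and Capn1 next, all at 0.88. Ear6 is of the eosinophil-associated ribonuclease family and was listed here among alveolar macrophage markers. Lbp was nearest to the epithelial genes Tmc5 and Muc4, at 0.87 each, and then Wdr72 at 0.84. The nearest genes of Orm1 were Dmxl2, Gsap and Mfsd2a (0.79, 0.76 and 0.72). For Lcn2, C4b and C1ra the nearest genes were Olfr3 (0.79), Rhobtb2 (0.85) and Ogdh (0.87).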

How the data were processed

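RNA from whole lung of 16 samples in 4 groups of 4 was hybridised to 1-colour Affymetrix arrays after labelling from 50 ng of total RNA, per the labels' protocols. The deposited values are log2 intensities that the authors computed by RMA in Affymetrix Expression Console, as the submitters' processing notes name them; versions and genome build are not stated in those notes. Of 35556 probe sets, 21789 carried 1 symbol, 1621 several and 12146 none, and the symbol's probe set with the highest mean stood for each of 19938 genes. R 4.3.3 and limma 3.58.1 fitted 4 group means over 16 arrays (12 residual degrees of freedom), with 2-sided tests and Benjamini-Hochberg adjustment, and the fit was tested on simulated data. The number of arrays limits the precision, and the files give no scan batch used here. The members and lists were chosen with earlier results of these data known. Named genes were the members, their relatives, Vldlr, up to 4 called genes per list and comparison by size (or the 2 with the smallest p), and the 3 genes most correlated with each member; Il6, Rnase2a and the marker genes were named outside this rule, after their values were seen. The alternatives tried were quantile normalization, arrays shifted to 1 median, leaving out genes whose mean lay under percentile 25 or 50, a variance trend with robust fitting, array weights, a fit of the compared groups alone, means of probe sets, a replicate block, a neutrophil or clock covariate, the model without wild-type saline arrays 2 and 3, and leaving out each array.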

Additional observations from a re-analysis of the deposited data

Results flagged for a closer look

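The Orm1 interaction of -1.49, a rise under HDM in wild type and a lower mean in the knockout, is given because the responses of the genotypes differed by a test of the difference itself. That call was lost in 9 of 27 settings, among them the clock covariate (-1.61, limma adjusted p = 0.150). Single arrays lay far from the other 3 of their group in 4 of the 40 groups of values examined, where the gap to the nearest array divided by the group's range exceeded Dixon's 95% critical value. Chance flags about 1 in 20 groups. In knockout saline, Hp on array 4 was 12.48 against 12.25 for the nearest (ratio 0.955). Lcn2 on knockout HDM array 2 was 13.30 against 13.64 (ratio 0.913). Lbp on wild-type saline array 3 was 12.002 against 12.18 (ratio 0.879). In knockout saline, Lbp on array 2 had a ratio of 0.902, but that group's SD was 0.01.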

How the results depend on the processing

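Of 1385 alternative values for the 50 member results, 1293 kept direction and side of the threshold. Another 38 were no longer called, 28 became called and 26 changed sign, with no call on either side of a sign change. With array weights, 3 members were called under saline between genotypes and 2 in the interaction, against 0 and 1. Over all genes these weights called 110 and 680, against 46 and 160. A fit of the compared groups alone called 1 under saline (Lbp) and 1 under HDM between genotypes, and 98 and 390 of all genes. The variance trend with robust fitting also called 1 under HDM, and 2320 of all genes. Quantile normalization called 2 in the interaction, adding Lbp, and 197 of all genes. The clock covariate called 0 under HDM between genotypes, and 79 of all genes. In the interaction it called 0 members and 0 of all genes. The model without wild-type saline arrays 2 and 3 called 0 members in the interaction, and 12 of all genes. The cause was not tested, though the clock covariate raised the median SE of the wild-type comparison 1.33 times and the last model had fewer samples. Without single arrays, the counts were 2 to 3 for HDM in wild type, 4 to 6 for HDM in the knockout, 0 to 1 under saline, 1 to 3 under HDM and 0 to 2 for the interaction. Over all genes they were 1960 to 3799, 1034 to 2673, 14 to 66, 968 to 3831 and 41 to 1019 respectively.

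Sign changes, all of uncalled values, were as follows. Without wild-type saline arrays 2 and 3, the saline difference was -0.0069 for C1ra and -0.025 for Hp, and the interaction 0.016 for C1ra and 0.0066 for C4b. The HDM genotype difference of C1ra was -0.0041 after the median shift, -0.053 with array weights and -0.086 with the neutrophil covariate. With the clock covariate, the HDM genotype difference of Hp was 0.14 and the interactions of C1ra and Hp 0.15 and 0.11. Without single arrays, Saa3 ranged from -0.12 to 0.40 for HDM in wild type and from -0.19 to 0.022 under saline. Under saline C1ra ranged from -0.045 to 0.14 and Hp from -0.0086 to 0.11. Under HDM C1ra ranged from -0.063 to 0.088 and Lcn2 from -0.11 to 0.027 between genotypes, and the C1ra interaction from -0.13 to 0.054. The filter at the 50th percentile left out C1ra.

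Samples with the same replicate number deviated together weakly at most, with a median correlation of 0.042, against -0.005 for different numbers. Of 24 pairs, 7 correlated above 0.1, and 6 of 16 arrays were closest to their own number. The numbers were not taken to pair samples, and whether they do was not tested. With the replicate block, 2, 6, 0, 2 and 1 members were called in the 5 comparisons, the counts without it. Over all genes 3543, 1841, 52, 2519 and 258 were called with it, against 3505, 1763, 46, 2327 and 160 without.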
